A study of Mus musculus with 24 samples.

Results

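The transcripts of 9 genes that mark resident macrophages and microglia were examined in the mouse choroid, the vascular layer behind the retina. The genes were Csf1r, Aif1, Cd68, Tmem119, P2ry12, Mrc1, Cd163, Lyve1 and Folr2. They were chosen by name as markers, by a rule that uses no measured value, and all 9 were found among the 56065 genes of the deposited table. Choroidal RNA was sequenced from wild type mice and from Ceacam1-/- mice, which lack exons 1 and 2 of Ceacam1, the gene of a cell adhesion receptor of endothelial and myeloid cells. The paper describes its mice as littermates on a C57BL/6J background, bred from heterozygous parents, of both sexes and, unless otherwise stated, 6 to 8 weeks old. It covers healthy eyes and reports no laser treatment, so it does not say whether this holds for the laser libraries. Of the 24 libraries, 4 came from wild type (WT) and 4 from Ceacam1-/- (KO) mice without laser, and 9 from WT and 7 from KO mice with laser treatment, which is used to induce new vessel growth from the choroid. The labels give neither the time after laser nor the sex of the mice, and they do not say that every library came from a separate animal, so the p-values measure the spread between these libraries. Library totals of normalized counts, which are estimated reads scaled for library size and transcript length, ranged from 23704346 to 35094410.

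Macrophages of the choroid and microglia of the retina are long-lived phagocytes that depend on signalling through the receptor CSF1R. Microglia are recognised by TMEM119 and the ADP receptor P2RY12, whereas macrophages along vessels carry the mannose receptor MRC1 (CD206), the haemoglobin scavenger receptor CD163, the hyaluronan receptor LYVE1 and the folate receptor FOLR2. AIF1 (IBA1) and CD68 are found in both and also in macrophages that derive from recruited monocytes. After laser injury, microglia and macrophages gather at the lesion. In bulk tissue, more cells of a type and more RNA per cell cannot be told apart.

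Ceacam1 (ENSMUSG00000074272) was examined first as a check of the labels. Without laser, Ceacam1 was at 958, 5027, 1242 and 4596 normalized counts in WT and at 405, 505, 508 and 1171 in KO. With laser, Ceacam1 ranged from 774 to 8367 in WT (median 996, n = 9) and from 67.8 to 905 in KO (median 335, n = 7). The medians were lower in KO, but 1 KO library overlapped the WT range under each condition. In the gene-wide fit the genotype difference of Ceacam1 was −1.95 ± 0.60 (log2, SE) without laser and −2.17 ± 0.52 with laser, and neither passed the threshold (limma, adjusted p = 0.999 and 0.104). The gene-level counts include exons outside the deletion.

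Photoreceptor transcripts differed widely between libraries of a group. A photoreceptor score was computed as the mean log2 normalized count of 10 genes, all of them detected. Laser libraries 14, 15 and 18 of KO had the highest scores of the 24 (15.4, 14.6 and 15.3), and the summed photoreceptor counts in these libraries were 959347, 547268 and 1017841. The other 4 KO laser libraries scored between 8.68 and 12.6 and the WT laser libraries between 8.33 and 13.1. In the same 3 libraries the mean log2 levels of pigment epithelium genes (10.4 to 11.1) and of melanocyte genes (9.84 to 11.5) were below those of all 21 other libraries, which began at 12.2 in both lists. Genes of haemoglobin and haem clearance were also below them, at 9.364 to 9.836 against 9.872 in the lowest other library. KO library 23 and WT library 21, both without laser, followed with scores of 14.6 and 14.4. Libraries 14, 15 and 18 were first noticed through low values of the macrophage genes themselves, so results without them were chosen after their values were seen. They do not form a labelled batch, and the results that rest on them are given with and without them.

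All 9 genes were expressed in every library, and the lowest value of any of them was 38.5 normalized counts. Levels of different genes were compared per kilobase of the canonical transcript. In WT without laser, Cd68 was the highest at 479 ± 155 normalized counts per kilobase (SD, n = 4), followed by Csf1r at 358 ± 165 and Tmem119 at 305 ± 142. Folr2 (159 ± 126) and Mrc1 (87.9 ± 27.6) were intermediate. Aif1 (79.4 ± 28.7), Lyve1 (61.4 ± 22.2), P2ry12 (46.6 ± 14.7) and Cd163 (45.8 ± 20.9) were the lowest. Each gene overlapped its neighbour in this order, so adjacent ranks did not differ beyond the spread of the libraries. In WT with laser the level of Cd68 was 3308 ± 1128 per kilobase (n = 9), and its lowest library (2197) lay above the highest library of the next genes in order, Tmem119 (770) and Csf1r (935). Lyve1 was then the lowest at 48.5 ± 14.9.

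Shared sequence around the transcription starts was examined because the genes mark related cells. The letters of 4 motifs were searched on both strands in 300 bases, from 250 before to 50 after the start of the canonical transcript (GRCm39, GENCODE annotation), of 8 of the genes and of 21757 promoters in all. Csf1r was not included. The PU.1 core GAGGAA was present in 2 of 8 (Mrc1 and Cd68) and in 27.5% of all promoters. The AP-1 site TGACTCA was present in 3 of 8 (Tmem119, Folr2 and Cd68) and in 4.7% of all promoters. The E-box CACGTG was present in P2ry12 and in 7.8% of all, and the TATA box TATAAA in 0 of 8 and 13.2% of all. Promoters of Cd68, Mrc1 and Tmem119 are shown, chosen after the matches were seen, because they hold all PU.1 matches and 2 of the 3 promoters with an AP-1 match; capitals mark PU.1 and AP-1 matches on either strand. They lie at chr11:69557018-69557317 (minus strand), chr2:14233901-14234200 (plus strand) and chr5:113938528-113938827 (minus strand). A match of letters is a description and not a binding site.
Cd68: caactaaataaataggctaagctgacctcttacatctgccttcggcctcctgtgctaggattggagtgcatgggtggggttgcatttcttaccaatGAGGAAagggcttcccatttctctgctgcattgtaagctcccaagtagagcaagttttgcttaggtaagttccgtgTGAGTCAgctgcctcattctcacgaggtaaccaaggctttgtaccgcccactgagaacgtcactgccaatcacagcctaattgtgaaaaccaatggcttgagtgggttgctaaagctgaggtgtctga
Mrc1: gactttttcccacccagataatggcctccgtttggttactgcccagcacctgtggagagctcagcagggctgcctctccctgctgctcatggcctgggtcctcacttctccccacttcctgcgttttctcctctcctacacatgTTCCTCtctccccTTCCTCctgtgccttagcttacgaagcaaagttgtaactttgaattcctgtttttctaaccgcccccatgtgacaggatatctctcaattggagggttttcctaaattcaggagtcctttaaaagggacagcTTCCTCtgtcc
Tmem119: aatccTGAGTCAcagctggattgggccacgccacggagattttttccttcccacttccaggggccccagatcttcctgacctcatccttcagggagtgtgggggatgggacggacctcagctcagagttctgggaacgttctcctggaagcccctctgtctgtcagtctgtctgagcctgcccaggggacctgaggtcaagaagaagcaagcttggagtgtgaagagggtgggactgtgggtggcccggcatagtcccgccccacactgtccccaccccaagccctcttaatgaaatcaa

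The first comparison asked which genes of resident macrophages changed with laser in WT mice. Cd68 and Aif1 were higher with laser, by 6.84-fold and 3.46-fold, and both passed the test. Mrc1, Folr2, Tmem119, Csf1r and P2ry12 had higher values with laser by 1.73-fold to 2.68-fold but did not pass it, and Cd163 (1.45-fold higher) and Lyve1 (1.25-fold lower) did not pass it either. In the fit across all 24 libraries, 2 of the 9 genes were called higher and 0 lower, whereas 4.23% of 19950 genes tested were called higher and 1.05% lower. At an unadjusted p under 0.05 there were 6 of the 9 (20% of all genes). Values above 0 were found in 8 of the 9 genes (42.1% of all genes), with a median log2 fold change of 1.14 against −0.10 over all genes tested.

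**Figure D1:**
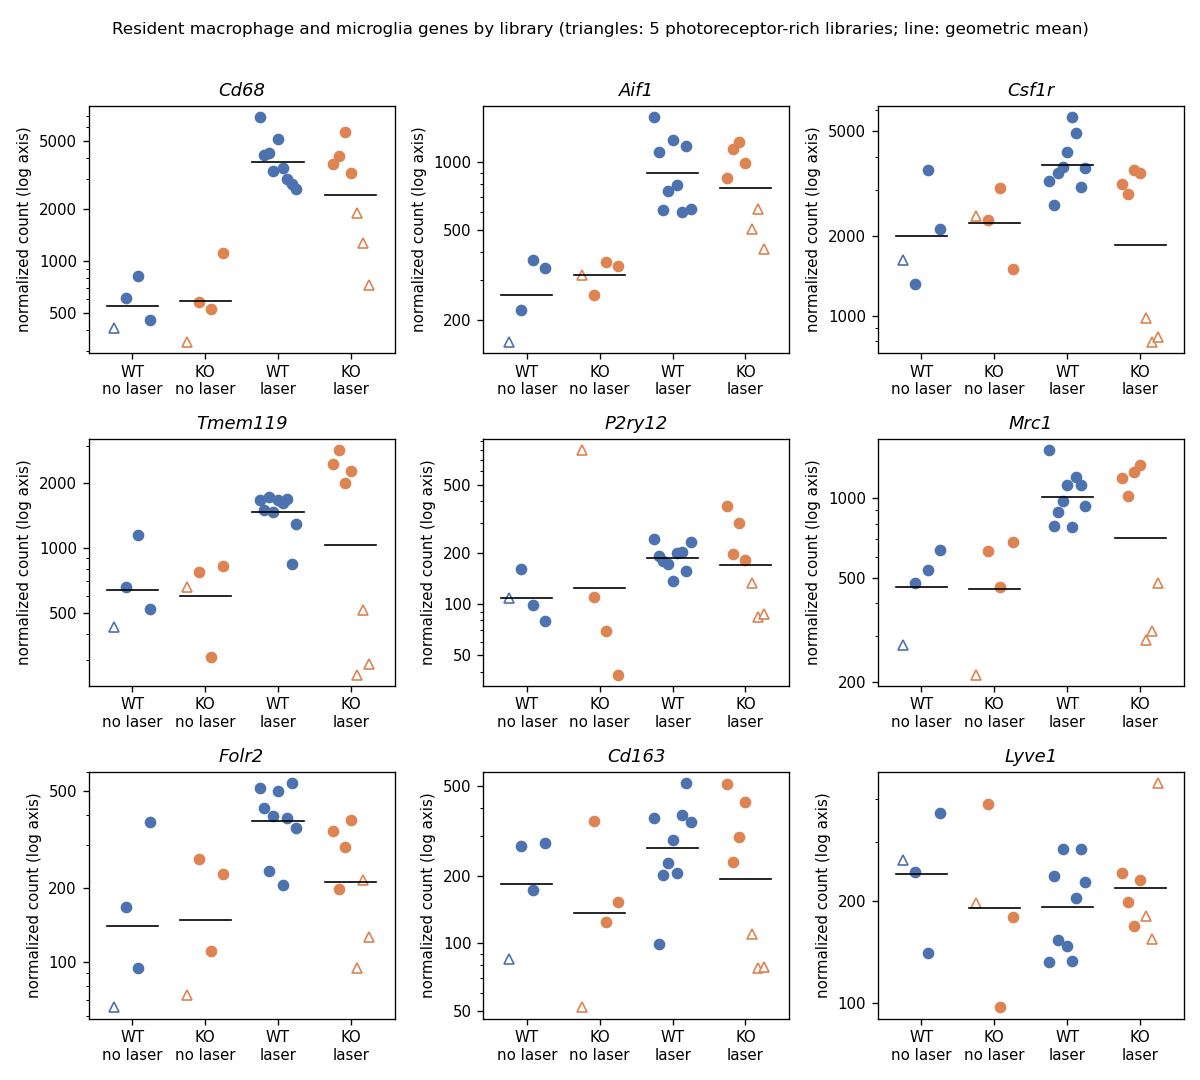
Normalized counts (log axis) of the 9 genes in each of the 24 libraries, by genotype and laser, with the geometric mean of a group as a line. Triangles mark the 5 libraries with the highest photoreceptor scores (KO laser 14, 15 and 18, KO 23 and WT 21 without laser); Cd68 in WT rose from 411 to 824 without laser to 2632 to 6873 with laser, and the 3 KO laser triangles lie below the other KO laser libraries in 7 of the 9 panels, all but Folr2 and Lyve1.

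Cd68 (ENSMUSG00000018774, chr11:69555037-69557067), which encodes a lysosomal glycoprotein of phagocytes, was at 411, 608, 824 and 455 normalized counts in WT without laser. With laser it ranged from 2632 to 6873 (median 3490, n = 9). Every laser library lay above every library without laser. The fitted log2 change was 2.77 ± 0.41 (SE, 95% confidence interval 1.93 to 3.61, limma, adjusted p = 0.000141), and the two-sided exact permutation test gave p = 0.0014, the smallest possible with 715 splits of 9 and 4 libraries.

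Aif1 (ENSMUSG00000024397, chr17:35387384-35395053) encodes IBA1, an actin-bundling protein and the usual histological marker of microglia and macrophages. It was at 160, 221, 368 and 340 normalized counts without laser and ranged from 605 to 1586 with laser (median 797, n = 9). The groups did not overlap. The log2 fold change was 1.79 ± 0.30 (SE, limma, adjusted p = 0.00077, exact permutation p = 0.0014). Of the 4236 exonic bases of Aif1, 703 are shared with the lncRNA gene Gm17705 on the opposite strand, whose reads cannot be told apart from those of Aif1 where strand is not used; its mean was 40.2 normalized counts.

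Csf1r (ENSMUSG00000024621, chromosome 18) encodes the receptor for CSF1 and IL34 on which macrophages depend. It was at 1622, 1318, 3570 and 2142 normalized counts in WT without laser and ranged from 2626 to 5654 with laser (median 3642, n = 9). Library 26 without laser reached the range of the laser libraries, and 5 of the 9 laser libraries lay above all libraries without laser. The estimate on the log2 scale was 0.89 ± 0.38 (SE, limma, adjusted p = 0.186, exact permutation p = 0.00699 before adjustment). Csf1r shares 1461 of 7361 exonic bases with Hmgxb3 on the opposite strand (mean 555 normalized counts).

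Of the microglial genes, Tmem119 (ENSMUSG00000054675, chr5:113931781-113938577), which encodes a membrane protein, was at 427, 656, 1147 and 518 normalized counts without laser. With laser it ranged from 844 to 1734 (median 1624, n = 9), and 8 of 9 laser libraries were above all libraries without laser. The exception was library 17 at 844. The log2 fold change of Tmem119 was 1.21 ± 0.53 (SE, limma, adjusted p = 0.199, exact permutation p = 0.0028). P2ry12 (ENSMUSG00000036353, chr3:59123682-59170429), the receptor by which microglia sense ADP, was at 108, 161, 98.0 and 78.9 without laser and ranged from 137 to 240 with laser (median 191, n = 9). The groups overlapped only in that library 22 without laser lay above 2 laser libraries. For P2ry12 the log2 fold change was 0.79 ± 0.51 (SE, limma, adjusted p = 0.394, exact permutation p = 0.0042). P2ry12 shares 294 of 3206 exonic bases with Med12l on the opposite strand (mean 255 normalized counts).

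Of the genes of perivascular and other tissue macrophages, Mrc1 (ENSMUSG00000026712, chr2:14234151-14336926) was at 278, 475, 535 and 638 normalized counts without laser and ranged from 775 to 1527 with laser (median 981, n = 9). Its groups did not overlap, with a log2 fold change of 1.14 ± 0.38 (SE, limma, adjusted p = 0.0875, exact permutation p = 0.0014). Together with Cd68 and Aif1, 3 of the 9 genes had higher groups without overlap, against 4.5% of all genes tested. Folr2 (ENSMUSG00000032725, chr7:101489195-101506401) was at 65.3, 168, 94.4 and 372 without laser and ranged from 206 to 540 with laser (median 397, n = 9). Library 27 alone reached the laser range. For Folr2 the log2 fold change was 1.42 ± 0.43 (SE, limma, adjusted p = 0.053, exact permutation p = 0.00699), and 975 of its 1593 exonic bases are shared with the lncRNA gene Gm10602 on the opposite strand (mean 87.4 normalized counts).

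Cd163 (ENSMUSG00000008845, chr6:124281606-124307560) was at 84.7, 272, 173 and 280 normalized counts without laser and ranged from 98.8 to 517 with laser (median 289, n = 9). Lyve1 (ENSMUSG00000030787, chr7:110448585-110462460) was at 265, 244, 141 and 366 without laser and ranged from 132 to 285 with laser (median 204, n = 9). Both genes overlapped over most of their ranges. The log2 fold change of Cd163 was 0.54 ± 0.53 (SE, limma, adjusted p = 0.584), and that of Lyve1 was −0.32 ± 0.33 (SE, limma, adjusted p = 0.597). Lyve1 was the single gene of the 9 with a negative value in this comparison. LYVE1 is also carried by lymphatic endothelium, and of 6 lymphatic genes 0 were called in either direction with laser (limma, 0 at an unadjusted p under 0.05), with summed counts of 4114 to 7964 without and 6080 to 8058 with laser in WT, where Pdpn was the most abundant and none of the 6 was at 0 in every library.

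The spread in this fit was estimated over all 4 groups. Fitted on the 13 WT libraries alone, 7 of the 9 genes were called higher, all except Cd163 and Lyve1, while 8.13% of 19529 genes were called higher. Leaving out the 5 libraries with the highest photoreceptor scores, of which library 21 is a WT library, gave 4 genes called higher (Cd68, Aif1, Mrc1 and Tmem119), against 5.76% of 19596 genes. Leaving out KO laser libraries 14, 15 and 18 alone, which enter this fit through the shared spread, gave 6 called higher (these 4, Folr2 and Csf1r), against 7.82% of 19723 genes.

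**Figure D2:**
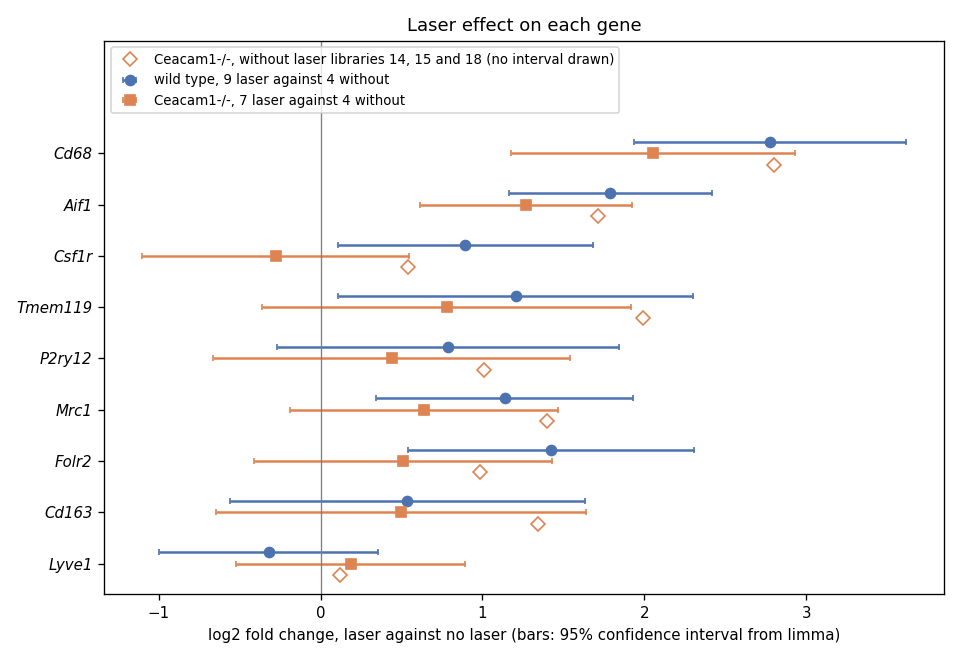
Log2 fold change with laser of each gene in WT (circles) and KO (squares), with 95% confidence intervals from limma, and in KO without laser libraries 14, 15 and 18 (open diamonds, no interval drawn). Cd68 (2.77 and 2.05) and Aif1 (1.79 and 1.27) lie farthest to the right in both genotypes on all libraries, and in KO the intervals of the other 7 genes include 0, as do those of P2ry12, Cd163 and Lyve1 in WT.

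In KO mice, Cd68 was 4.15-fold and Aif1 2.41-fold higher with laser and passed the test in the fit across all 24 libraries, and the other 7 genes did not. Fitted on the 11 KO libraries alone, 0 of the 9 were called (limma, adjusted p = 0.168 for Cd68 and 0.156 for Aif1, both at an unadjusted p under 0.05), while 0.177% of 20299 genes were called higher. For KO, 2.07% of 19950 genes were called higher and 1.65% lower. At an unadjusted p under 0.05 there were 2 of the 9 (20% of all genes). Of the 9 genes, 8 had a log2 fold change above 0 (51.2% of all genes), with a median of 0.51 against 0.02 over all genes. These values rest in part on libraries 14, 15 and 18, in which 7 of the 9 genes lay below all 4 other KO laser libraries. Without these libraries 4 of the 9 genes (Cd68, Tmem119, Aif1 and Mrc1) were called higher, against 7.6% of 19723 genes. The libraries were left out after these low values were seen, so the higher count is partly built in.

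Cd68 was at 341, 581, 528 and 1116 normalized counts in KO without laser. With laser it was 3698, 4090, 5611 and 3271 in libraries 4 to 7 and 1920, 1281 and 726 in libraries 14, 15 and 18. Library 18 alone fell into the range without laser. The log2 fold change was 2.05 ± 0.42 (SE, limma, adjusted p = 0.00908, exact permutation p = 0.00909), and 2.80 ± 0.32 without the 3 libraries (adjusted p = 1.02e-05).

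Aif1 was at 316, 257, 362 and 347 normalized counts in KO without laser. With laser it was 851, 1145, 1235 and 995 in libraries 4 to 7 and 504, 620 and 414 in libraries 14, 15 and 18. All 7 laser libraries lay above all 4 without laser, as in 1.17% of all genes tested. The fitted log2 change was 1.27 ± 0.32 (SE, limma, adjusted p = 0.0274, exact permutation p = 0.00606), and the call was lost without library 5, 7, 24 or 25 (adjusted p from 0.0513 to 0.112).

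Tmem119 was at 661, 775, 310 and 824 normalized counts in KO without laser. With laser it was 2474, 2860, 2018 and 2286 in libraries 4 to 7 and 258, 513 and 289 in libraries 14, 15 and 18. The laser libraries thus fell on both sides of the unlasered ones, 4 above all of them and 2 below. The log2 fold change was 0.78 ± 0.55 (SE, limma, adjusted p = 0.446) with all libraries and 1.99 ± 0.30 without the 3 (adjusted p = 0.000155).

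Csf1r behaved alike in the 3 libraries. It was at 2380, 2307, 3055 and 1500 normalized counts in KO without laser. With laser it was 3153, 2891, 3554 and 3490 in libraries 4 to 7 and 979, 798 and 831 in libraries 14, 15 and 18, which are the lowest Csf1r values of all 24 libraries. The estimate on the log2 scale was −0.28 ± 0.40 (SE, limma, adjusted p = 0.73) and turned to 0.54 ± 0.27 without the 3 libraries (adjusted p = 0.228, exact permutation p = 0.0571).

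Mrc1 was at 214, 629, 462 and 682 normalized counts in KO without laser. With laser it was 1198, 1020, 1263 and 1337 in libraries 4 to 7 and 290, 312 and 477 in libraries 14, 15 and 18. Its log2 fold change was 0.64 ± 0.40 (SE, limma, adjusted p = 0.385) and 1.40 ± 0.30 without the 3 libraries (adjusted p = 0.00444). Without these libraries, Cd68, Aif1, Tmem119 and Mrc1 each had groups that did not overlap, as did 9.18% of genes in the higher direction. Each gave an exact permutation p of 0.0286, the smallest possible with 4 against 4. The libraries were left out after their low values of these genes were seen, so this separation is partly built in.

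The remaining genes did not separate the groups in KO. P2ry12 was at 800, 110, 69.5 and 38.5 normalized counts without laser and ranged from 84.3 to 376 with laser (median 181, n = 7). Library 23, at 800, held the highest P2ry12 value of the 24, and the log2 fold change of P2ry12 moved from 0.44 ± 0.53 (SE, limma, adjusted p = 0.673) to 1.33 ± 0.39 without it (adjusted p = 0.03), when 5.71% of 19888 genes were called higher. Folr2 was at 73.1, 263, 111 and 230 without laser and ranged from 94.9 to 380 with laser (median 216, n = 7, log2 fold change 0.51 ± 0.45, limma, adjusted p = 0.549). Cd163 was at 51.9, 351, 124 and 153 without laser and ranged from 77.6 to 510 with laser (median 229, n = 7, log2 fold change 0.49 ± 0.55, limma, adjusted p = 0.646). Lyve1 was at 198, 387, 97.3 and 180 without laser and ranged from 155 to 448 with laser (median 199, n = 7, log2 fold change 0.19 ± 0.34, limma, adjusted p = 0.794). Library 18 held the highest Lyve1 value (448) of all 24 libraries, whereas each of the other 8 genes was lower in it than in KO laser libraries 4 to 7.

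**Figure D3:**
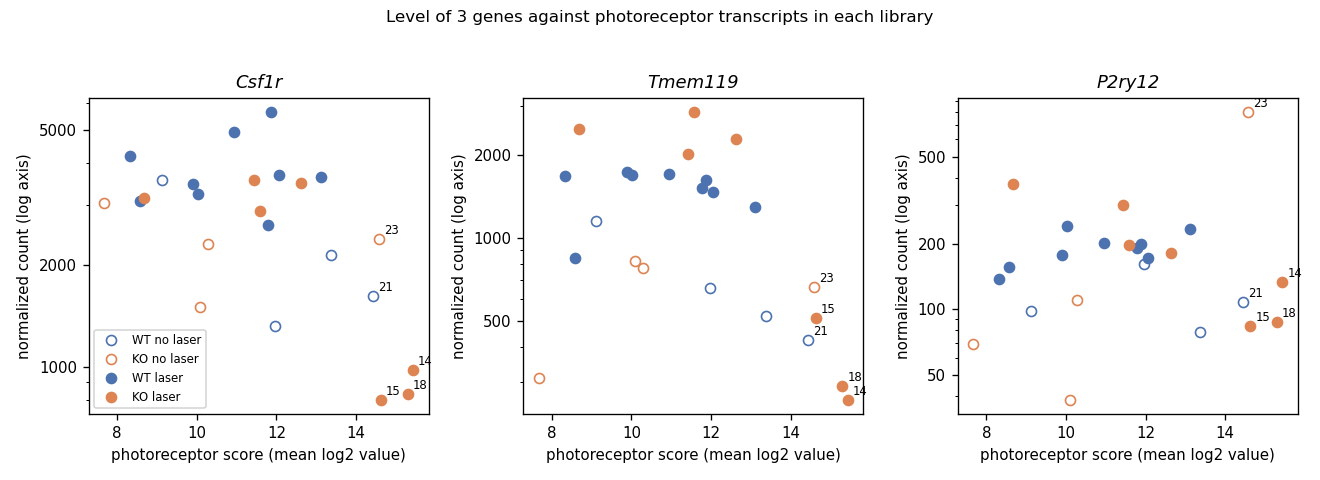
Normalized counts (log axis) of Csf1r, Tmem119 and P2ry12 against the photoreceptor score, the mean log2 value of 10 photoreceptor genes, in each of the 24 libraries by group. KO laser libraries 14, 15 and 18 stand at the right with Csf1r between 798 and 979, while library 23 without laser, at a score of 14.6, has the highest P2ry12 value (800).

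Csf1r was set beside the photoreceptor score in the 5 libraries where the score was highest. In the 3 photoreceptor-rich KO laser libraries Csf1r was between 798 and 979, whereas library 23, with a score just below theirs, had 2380, and library 21 had 1622. Adding this score to the model gave a log2 fold change of 0.07 for Csf1r with laser in KO. The part of retinal tissue, pigment epithelium or melanocytes in these values was not tested.

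The difference between the laser effects of the genotypes was tested as an interaction in the same 24 libraries. No gene of the 9 passed (limma, adjusted p from 0.64 to 0.986), nor did any of the 19950 genes tested (0%), of which 1241 had an unadjusted p under 0.05 (6.22%). Values above 0 were found in 1 of the 9 (50.5% of all genes). The comparisons of laser and of genotype share libraries and are not independent of each other. The lowest of the 9 was Csf1r at −1.17 ± 0.55 (SE, unadjusted p = 0.0442, 95% confidence interval −2.31 to −0.03), and this was −0.35 ± 0.35 without libraries 14, 15 and 18. Tmem119 turned from −0.43 ± 0.77 to 0.78 ± 0.40 without them (adjusted p = 0.999). The intervals were wide, for example −1.94 to 0.49 for Cd68 and −1.43 to 0.39 for Aif1.

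Without laser, the 9 genes showed no difference between genotypes that exceeded the spread. None was called among 20057 genes, of which 0% were called and 307 (1.53%) had an unadjusted p under 0.05 (limma, 0 of the 9). The paper compared healthy choroid of the genotypes by DESeq2 with sex as a covariate and reports a small set of differentially expressed genes. The limma fit here had no sex covariate and did not call Ceacam1 itself. The absence of calls is therefore not evidence that the genotypes are equal. The log2 difference, KO minus WT, ranged from −0.42 for Cd163 to 0.30 for Aif1, with 5 of the 9 above 0 (47.9% of all genes) and a median of 0.08 against −0.02 over all genes. The 95% confidence intervals were −0.77 to 0.93 for Cd68, −0.40 to 1.00 for Aif1, −0.61 to 0.92 for Csf1r, −0.99 to 0.82 for Tmem119, −0.95 to 0.91 for Mrc1 and −1.67 to 2.09 for P2ry12. With 4 libraries a group the smallest possible exact permutation p is 0.0286, and the lowest of the 9 was 0.343, for Aif1.

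With laser, no gene of the 9 was called between genotypes, whereas 4 of 19757 genes were (0.0202%). By limma 2 of the 9, Csf1r and Folr2, had an unadjusted p under 0.05, as did 22.7% of all genes. The log2 difference, KO minus WT, was below 0 in 8 of the 9, all except Lyve1 (above 0 in 51.2% of all genes), with a median of −0.51 against 0.01 over all genes. Csf1r had the largest difference, −1.02 (95% confidence interval −1.72 to −0.31, limma, adjusted p = 0.138, exact permutation p = 0.00962), and Folr2 followed at −0.83 (−1.44 to −0.21, adjusted p = 0.154, exact permutation p = 0.0166). KO laser libraries 4 to 7 (2891 to 3554) lay inside the Csf1r range of WT (2626 to 5654), and libraries 14, 15 and 18 lay below it. Without the 3 libraries the difference was −0.20 ± 0.17 (SE) for Csf1r and −0.35 ± 0.26 for Folr2, and 6 of the 9 genes turned to a value above 0. No gene of the 9 was called in that version (0.0104% of all genes).

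Tmem119 moved most between these versions. With all libraries the genotype difference with laser was −0.51 (95% confidence interval −1.52 to 0.50, limma, adjusted p = 0.509). Without libraries 14, 15 and 18 it was 0.70 ± 0.18 (SE, limma, adjusted p = 0.278). The 4 KO libraries left (2018 to 2860) then lay above all 9 WT libraries (844 to 1734, exact permutation p = 0.0014, the smallest possible). The libraries left out had the lowest Tmem119 values of KO laser (258, 513 and 289) and were noticed through low macrophage genes. The separation is therefore partly built in, and this p is not a test of genotype. In that version 0.456% of 19316 genes had KO above WT without overlap. The 6 fibroblast genes had a median log2 difference of 0.87 there, with 4 at an unadjusted p under 0.05 (limma). For 10 homeostatic microglia genes the median was 0.22, with 2 at an unadjusted p under 0.05. The part of other cell types in the Tmem119 value was not tested.

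To see whether the genes moved by equal amounts, each was expressed relative to Csf1r of the same library, in 24 tests without adjustment, of which 16 used all libraries and 8 left out libraries 14, 15 and 18. In WT, Cd68 was higher by 1.88 (log2) relative to Csf1r with laser (exact permutation p = 0.0014), and Aif1 by 0.89 (p = 0.0462, exact permutation). Lyve1 was lower relative to Csf1r by −1.22 (exact permutation p = 0.035). In KO the difference relative to Csf1r was 2.33 for Cd68 and 1.54 for Aif1 (exact permutation p = 0.00303 for both, the smallest possible), and 0.92 for Mrc1 (p = 0.0364, exact permutation). The other 10 tests on all libraries gave p from 0.0606 to 0.778 (exact permutation). The KO values without libraries 14, 15 and 18 were 2.26 for Cd68, 1.17 for Aif1 and 1.45 for Tmem119 (exact permutation p = 0.0286 for each, the smallest possible), and 0.86 for Mrc1 (exact permutation p = 0.143). This version was chosen after the low values of libraries 14, 15 and 18 were seen. With all libraries, Cd68 and Aif1 thus had a larger difference with laser than Csf1r in both genotypes.

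**Figure D4:**
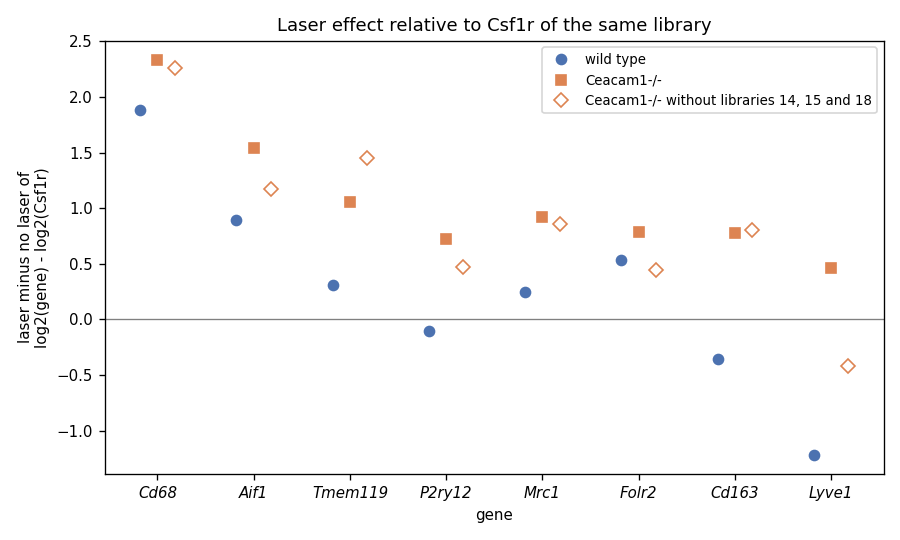
Laser minus no laser difference of log2 of each gene minus log2 of Csf1r of the same library, in WT (circles), KO (squares) and KO without laser libraries 14, 15 and 18 (open diamonds). Cd68 stands highest in all 3 sets (1.88, 2.33 and 2.26), and Lyve1 lies below 0 in WT (−1.22) and above 0 in KO with all libraries (0.46).

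Wider lists of genes of microglia, macrophages and their signalling, which also hold the 9 genes, were described by counts, to be read beside the 4.23% of all genes called higher in WT and 2.07% in KO. Of 10 homeostatic microglia genes tested, 4 rose with laser in WT and 0 in KO (median log2 fold change 1.12 and 0.83), and 1 further list gene had a mean below the filter. The count without libraries 14, 15 and 18 was 6 in WT and 6 in KO (median 1.12 and 1.4), when 7.82% and 7.6% of all genes were called higher. Without library 23 it was 6 in KO (5.71% of all genes). The genes called in WT with all libraries included Selplg, a P-selectin ligand (2.03, adjusted p = 0.00255), Cx3cr1, the fractalkine receptor (1.96, adjusted p = 0.00262) and Gpr34 (1.16, adjusted p = 0.049), all by limma. Sall1, the transcription factor that defines microglia, was at 0.54 (adjusted p = 0.691) and Siglech at 0.22 (adjusted p = 0.816). Of 21 genes of tissue-resident and perivascular macrophages, 7 rose in WT and 2 in KO (median 1.14 and 0.64), and without libraries 14, 15 and 18 the counts were 12 and 11 (median 1.14 and 1.43). The complement genes C1qb (1.96, limma, adjusted p = 0.0016), C1qc (1.75) and C1qa (1.74) and the platelet factor gene Pf4 (2.15) were the 4 of lowest p in WT, and Pf4 was also called in KO (1.77).

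Of 13 pan-macrophage genes, 11 rose in WT (4.23% of all genes) and 9 in KO (2.07%), Cd68 and Aif1 among them in both (median 2.26 and 1.56). The counts without libraries 14, 15 and 18 were 12 and 11 (median 2.26 and 2.27). The 2 that were not called in WT were Csf1r and Mertk, a receptor for the clearance of apoptotic cells (0.43, limma, adjusted p = 0.544). Ptprc, the common leukocyte antigen CD45, rose by 2.21 in WT and 1.55 in KO, and Fcgr1, a high-affinity Fc receptor, by 3.16 and 2.67. Of 12 genes of the CSF1R pathway, 8 rose in WT and 3 in KO (median 1.2 and 0.70), and without libraries 14, 15 and 18 the counts were 11 and 10 (median 1.2 and 1.15). Spi1, which encodes the factor PU.1, rose by 2.25 in WT and 1.62 in KO, and Csf2rb, a cytokine receptor chain, by 2.37 and 1.42. The ligand genes Csf1 (0.98, limma, adjusted p = 0.0771) and Il34 (0.65, adjusted p = 0.36) were not called in WT.

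Lists around the other receptors were described in the same way, against the same shares of all genes. Of 6 folate genes, 0 rose and 1 fell in KO, the folate receptor gene Folr1 (−1.75, limma, adjusted p = 0.0229). Of 9 genes of haemoglobin and haem clearance, Hmox1, which encodes the haem-degrading enzyme, was the single one called in WT (2.69, adjusted p = 1.32e-05) and in KO (2.00, limma, adjusted p = 0.00145). Of 12 hyaluronan genes, 4 rose in WT and 3 in KO, with the hyaluronan synthase gene Has2 at 3.17 and 1.89. Of 9 purinergic genes, P2rx4, an ATP-gated channel gene, rose in WT (1.35, limma, adjusted p = 0.00577) and 0 were called in KO (1 at an unadjusted p under 0.05). With libraries 14, 15 and 18 left out, 2 genes of haem clearance, 4 of the hyaluronan list and 4 of the purinergic list were called higher in WT, and as many of each in KO. No gene of any list was called in the interaction or in either genotype comparison with all libraries (limma), nor in the interaction or the genotype comparison with laser without these 3.

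Markers of recruited monocytes moved with laser in the same libraries. Of 12 such genes, 9 rose in WT (4.23% of all genes) and 8 in KO (2.07%, medians 2.02 and 2.20), including Ccr2, the receptor for monocyte chemoattractants (2.91 and 2.81), and Ly6c2 (2.21 and 2.99). Their summed counts were 8038 to 19046 without and 28639 to 63424 with laser in WT, and 6682 to 16026 and 11967 to 47457 in KO, where Thbs1 was the most abundant. Of 14 lipid-associated macrophage genes, 9 rose in WT and 5 in KO, with Spp1, osteopontin, at 4.92 and 4.21. The monocyte counts without libraries 14, 15 and 18 were 9 in WT and 7 in KO, and the lipid-associated counts 12 and 11. On the KO libraries alone, 0 genes of the microglia, tissue-resident, pan-macrophage and CSF1R pathway lists were called (limma), with 1, 5, 11 and 4 at an unadjusted p under 0.05, and 3 of the monocyte and 1 of the lipid-associated list rose (0.177% of all genes). Cd68 and Aif1 are also expressed by such cells, and their part in the values of the 9 genes was not tested.

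How alike the 9 genes varied across libraries depended on KO laser libraries 14, 15 and 18. Over the 24 libraries, the deviations of log2 values from the 4 group means gave a median Pearson r of 0.425 over the 36 pairs of genes, with 30 above 0. Without libraries 14, 15 and 18 the median was 0.06 and 23 were above 0. These libraries were first noticed through low values of the same genes, so a lower median without them is partly built in. Mrc1 and Cd163 were the most alike pair over 24 libraries (r = 0.848 over 24 and 0.795 over 21 libraries), followed among perivascular genes by Mrc1 with Folr2 (0.752 and 0.792). Other pairs within a cell type were not alike. Mrc1 with Lyve1 gave 0.047 and 0.052, and the microglial genes Tmem119 and P2ry12 gave 0.396 and 0.065. P2ry12 with Mrc1 was at −0.018 and −0.628. These correlations are descriptions over libraries that share tissue composition and normalization.

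Among 15737 protein-coding genes, genes whose deviations were most like each of the 9 were named by the same measure. They were Bcl2a1b, Tyrobp and Ifi30 for Cd68 (r = 0.953 to 0.948, n = 24, and 0.868 to 0.893 over the 21 libraries without 14, 15 and 18), H2-DMa, Gmfg and Cd52 for Aif1 (0.939 to 0.888, and 0.824 to 0.909 over 21), and P2rx4, B3gnt9 and Fzd2 for Tmem119 (0.962 to 0.951, and 0.825 to 0.880 over 21). For Csf1r they were Col8a1 and Fads3 (0.962 and 0.953, and 0.880 and 0.878 over 21), for Mrc1 Col6a2, Col14a1 and Cd248 (0.934 to 0.927, and 0.832 to 0.863 over 21), and for Folr2 Dpt, Pi16 and Clec3b (0.909 to 0.873, and 0.842 to 0.886 over 21). Cd163 was most like F13a1, Tns1 and Pi16 (0.865 to 0.843, and 0.794 to 0.830 over 21), P2ry12 like Galnt6, Gatm and Tspan2 (0.901 to 0.877, and 0.873 to 0.892 over 21), and Lyve1 like Zfp112, Pigl and Serac1 (0.652 to 0.617, and 0.576 to 0.621 over 21). Lyve1 therefore had the lowest likeness to any other gene among the 9.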

How the data were processed

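The authors pseudo-aligned reads of SMART-Seq libraries to GRCm39 with Salmon 1.10.3 after FastQC 0.11.5 and deposited normalized counts made with DESeq2 1.44.0. These signal values are no longer whole reads, and over which libraries the normalization ran is not given in the sources used here. The study also removed 1 outlier library, which is not named. Groups were taken from the labels.

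Differences were tested with limma 3.58.1 (R 4.3.3) with a mean-variance trend on log2(normalized count + 1), for genes with a mean of at least 10, with Benjamini-Hochberg adjustment over all genes and a threshold of 0.05. Laser effects and the interaction were fitted on 24 libraries, and genotype on the 8 without or 16 with laser. Fold changes on this scale understate changes of low genes. For each of the 9 genes an exact permutation test, two-sided and unadjusted, was run as well (54 tests, 36 on all libraries and 18 without libraries 14, 15 and 18). The genes named are the 9, Ceacam1, members of 23 lists (207 of 208 genes found) and the most similar genes. Some genes of these lists and of the most similar genes are not reported here. The 9 genes, though their rule uses no value, and the lists were chosen with earlier results of these data known. Values were handled in Python 3.11.15 (numpy 2.4.6, pandas 2.3.3), permutation tests enumerated every split and were checked against scipy 1.17.1, and plots were drawn by matplotlib 3.10.9.

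Annotation matched 99.1% of gene identifiers. The fits were tested on simulated data with known changes. Most changes of the smaller simulated size were not recovered, and none of them for genotype without laser. Alternatives were other pseudocounts, filters, scalings, covariates, array weights, sets of libraries and each library left out.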

Additional observations from a re-analysis of the deposited data

Results flagged for a closer look

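In 36 groups of the 9 genes (4 to 9 libraries each), 3 had a library far from the others by Dixon's criterion, which chance alone gives in about 1 of 20 groups. Tmem119 was 844 normalized counts in WT laser library 17, below the other 8 laser libraries of WT (1290 to 1734). Lyve1 was 448 in KO laser library 18, the highest of all libraries, against 155 to 242 in the other 6.

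P2ry12 was 800 in KO library 23 without laser, against 38.5 to 110 in the other 3 libraries of the group. Of 11 homeostatic microglia genes found, 5 had their highest value of the 24 libraries in library 23, namely P2ry12, Sall1 (518), Siglech (269), P2ry13 (165) and Slc2a5 (77.6). Tmem119 (661) and Olfml3 (1144) were within the range of the other libraries. The photoreceptor score of this library was 14.6, and KO laser libraries 14, 15 and 18, with scores of 14.6 to 15.4, had P2ry12 at 84.3 to 133.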

How the results depend on the processing

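Pseudocounts of 0.5 and 10 left the direction and side of the threshold of all 45 gene values (9 genes in 5 comparisons) as they were, as did no filter. With a mean of at least 50, 44 of 45 stayed, with quantile normalization 44, with upper-quartile scaling 43, with the covariate of 4 Y-linked genes 42, with the photoreceptor score as covariate 33, without the 5 photoreceptor-rich libraries 26 and with array weights 22. Without libraries 14, 15 and 18 it was 18 of 36, and with other libraries in the fit 29 of 36. The cause of the changes was not tested. No paired analysis was run because the labels do not name pairs, and the serial library numbers cannot show whether libraries share a mouse or a litter. The interaction needs all 4 groups, so it has no version fitted on the compared libraries alone.

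Array weights gave 6505 genes (WT laser; 6 of the 9 higher, 1 lower), 3551 (KO laser; 4 higher), 1 (genotype without laser) and 297 (genotype with laser). They turned Csf1r to 0.35 and Lyve1 to −0.38 (KO laser), the interaction of Aif1 to 0.37, Tmem119 to 0.087, P2ry12 to 0.017, Mrc1 to 0.089 and Cd163 to 0.27, genotype without laser of Aif1 to −0.048, Tmem119 to 0.29, Mrc1 to 0.014 and Folr2 to −0.27, and genotype with laser of Aif1 to 0.32, Tmem119 to 0.38, P2ry12 to 0.21, Mrc1 to 0.12 and Cd163 to 0.25. Lyve1 fell in WT (−0.69; limma, adjusted p = 0.038). With the compared libraries alone, laser called 2274 genes in WT (7 of the 9) and 38 in KO (0 of the 9; limma), and with all 24, genotype with laser called 9. No filter gave 437 genes (KO laser), and a mean of at least 50 gave 2 (genotype with laser).

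Without the 5 photoreceptor-rich libraries, chosen after seeing the data, 1645 genes (4 of the 9) were called in WT, 2923 (5 of the 9) in KO and 2 for genotype with laser. Signs turned for Csf1r (KO laser, 0.57), the interaction of Aif1 (0.15), Tmem119 (1.02), P2ry12 (1.11), Mrc1 (0.14) and Cd163 (0.71), and genotype without laser of P2ry12 (−0.68) and Mrc1 (0.10). Without libraries 14, 15 and 18, also chosen after seeing the data, 2128 genes (6 of the 9) were called for WT laser, 2005 (4 of the 9) for KO laser and 2 for genotype with laser. Csf1r turned to 0.54 (KO laser), and the interaction of Tmem119 to 0.78, P2ry12 to 0.22, Mrc1 to 0.26, Cd163 to 0.81 and Cd68 to 0.028. In both versions genotype with laser turned for Aif1 (0.23), Tmem119 (0.70), P2ry12 (0.43), Mrc1 (0.24), Cd163 (0.39) and Cd68 (0.11).

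With the photoreceptor score as covariate, signs turned for Csf1r (KO laser, 0.071), the interaction of Tmem119 (0.34), Mrc1 (0.26), Cd163 (0.90) and Cd68 (0.042), genotype without laser of Folr2 (−0.009) and Cd68 (−0.16), and genotype with laser of Aif1 (0.15), Tmem119 (0.18), P2ry12 (0.18) and Cd163 (0.19). With the Y-linked covariate they turned for the interaction of Cd163 (0.063) and genotype with laser of P2ry12 (0.002) and Cd163 (0.01). Mrc1 without laser turned to 0.018 with upper-quartile scaling and 0.01 with quantile normalization.

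Leaving out 1 library at a time gave 479 to 1257 genes for WT laser (fewest without library 21 or 27), 148 to 2488 for KO laser (1 to 3 of the 9), 0 to 1 for genotype without laser and 4 to 61 for genotype with laser. It turned Lyve1 (−0.14 to 0.52) and P2ry12 (−0.12 to 1.33) in KO laser, the interaction of Cd163 (−0.50 to 0.41) and P2ry12 (−0.91 to 0.54), genotype without laser of Folr2 (−0.28 to 0.56), Cd68 (−0.23 to 0.34), Csf1r (−0.048 to 0.43), P2ry12 (−0.69 to 0.76), Mrc1 (−0.27 to 0.34), Cd163 (−0.87 to 0.042) and Tmem119 (−0.28 to 0.23), and genotype with laser of P2ry12 (−0.34 to 0.022). Folr2 passed the threshold in WT without library 13, 14, 18, 23 or 27 (limma, adjusted p from 0.0153 to 0.0466).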

Other observations

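Markers of other cell types were examined with laser in the same fits, in which 4.23% of all genes were called higher in WT and 2.07% in KO. Of 5 neutrophil genes tested, 3 rose in WT and 2 in KO, with the collagenase gene Mmp9 at a log2 fold change of 3.45 (limma, adjusted p = 0.000671) and 3.73 (adjusted p = 0.00115). Cxcr2 was at −0.06 in WT and −0.04 in KO. Retnlg, Ly6g and Ngp of the same list were too low to be tested, with highest values of 13.7, 4.14 and 10.6 normalized counts. The list therefore did not move as a whole. Of 8 dendritic cell genes, 3 rose in WT and 1 in KO, the chemokine receptor gene Ccr7 (3.21 and 2.19). Of 6 fibroblast genes, 2 rose in WT, Col3a1 (2.50) and Lum (1.90), and 1 in KO, Lum (2.11). Without KO laser libraries 14, 15 and 18, in which the mean log2 level of the fibroblast list was 12.4 to 13.4 against 15.4 to 15.9 in the other 4, 4 fibroblast genes rose in WT and 6 in KO, and the counts were 3 and 3 for neutrophil and 3 and 2 for dendritic cell genes.

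No gene of the lists of blood endothelium (8), lymphatic endothelium (6), photoreceptors (10), inner retina (10), pigment epithelium (8), melanocytes (6), muscle (8), lymphocytes (7), mast cells (5) or erythroid cells (5) was called with laser in either genotype by limma with all libraries. Without libraries 14, 15 and 18, 1 inner retina gene fell in WT, and 1 melanocyte and 2 lymphocyte genes rose in KO. Without library 23, all 8 muscle, 2 pigment epithelium and 1 mast cell gene fell in KO. The share of all genes called lower in these versions is not given here. In KO, 329 genes (1.65%) were called lower with all libraries, and 15 to 1353 with 1 library left out at a time. With all libraries, at an unadjusted p under 0.05, these lists held 2, 0, 0, 1, 0, 0, 2, 1, 0 and 0 genes in WT and 0, 1, 0, 1, 5, 0, 8, 1, 1 and 0 in KO. All 8 muscle genes had negative values in both genotypes, with a median of −1.05 in WT and −2.09 in KO.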
